A study of Mus musculus with 8 samples.

Results

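The genes described here are 10 genes of natural killer (NK) cells, type 1 innate lymphoid cells (ILC1) and cytotoxic granules. They were chosen by name among the 54532 gene rows of a count table, and all 10 were found: Ncr1, Klrb1c, Klre1, Klrk1, Eomes, Tbx21, Prf1, Gzma, Gzmb and Nkg7. Bulk RNA sequencing was performed on the stromal vascular fraction (SVF) of gonadal white adipose tissue (WAT), the cells that pellet when a collagenase digest of a fat pad is spun and the adipocytes float off. The 8 animals were C57BL/6J males, aged 6 weeks per the series design text when a high-fat diet (HFD, 60% of its calories as fat) began. The study's methods give 8 or 16 weeks for the mice obtained, so the age is uncertain. After 12 weeks of HFD they were switched to chow (16% of its calories as fat) for 6 weeks, up to week 18. During the chow weeks, 4 mice (mice 1, 2, 6 and 9) received an isotype control Ab and 4 mice (mice 5, 7, 8 and 10) received the anti-BAFF Ab Sandy-2, each at 2 mg/kg every 2 weeks. No lean group and no group kept on the HFD was analysed here, so the values describe obese mice during recovery. One of the fat pads of each mouse was used, and each mouse gave 1 library.

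NK cells and ILC1 are lymphocytes without rearranged antigen receptors. They recognise stressed or infected cells through activating receptors such as NKG2D and NKp46, and they kill by releasing granules that hold perforin, which opens the target membrane, and granzymes, proteases that enter the target cell. The transcription factors T-bet and Eomes direct their development, and CD8+ T cells use the same factors and the same granule proteins. In fat, NK cells and ILC1 are known as a source of interferon gamma during obesity. Granzyme B is not restricted to lymphocytes, and mouse mast cells also make it. BAFF is a survival factor for B cells, and the comparison asks whether its neutralization changed the NK and cytotoxic transcripts of the SVF.

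The libraries held between 13562340 and 18548024 counts. Levels are given as CPM (counts divided by the TMM-scaled library size), and a count of 3 in the smallest library equals 0.221 CPM before the scaling, a floor that covers counting error only. The SVF held leukocyte RNA in every mouse: Ptprc, the pan-leukocyte phosphatase CD45, was at 331 ± 59.7 and 337 ± 9.02 CPM under control and anti-BAFF Ab, respectively (SD, n = 4 each). Several libraries carried RNA of epididymis, and all carried erythroid RNA. The summed level of 10 epididymis genes was 1803 CPM in control Ab-treated mouse 2 and 1793 CPM in anti-BAFF Ab-treated mouse 7, 690 CPM in control Ab-treated mouse 6 and 651 CPM in anti-BAFF Ab-treated mouse 5, with the other 4 mice between 15.2 and 123 CPM. The 5 erythroid genes summed to 509 CPM in control Ab-treated mouse 2 and 537 CPM in anti-BAFF Ab-treated mouse 8, and to between 126 and 323 CPM in the others. Within the leukocytes of the SVF, the 5 neutrophil markers summed to 88.2 CPM in anti-BAFF Ab-treated mouse 5. They reached at most 13.0 CPM in the other mice. Control Ab-treated mouse 1 stood apart over all genes, with a chi-square per degree of freedom of 59.96 to 77.3 against the other control mice, which differed by 7.91 to 25.3 among themselves. In bulk RNA, fewer cells of a type and less RNA per cell cannot be told apart.

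All 10 genes were detected in every mouse, and 3 granule genes, Gzmb, Nkg7 and Gzma, had the highest levels per gene length. Levels of different genes were compared in FPKM (CPM per kilobase of the deposited gene length), averaged over the 8 mice. Gzmb, granzyme B, was highest at 13.5 ± 4.10 FPKM (SD, n = 8). Nkg7, a membrane protein of cytotoxic granules, followed at 7.57 ± 2.62 FPKM (SD, n = 8), and Gzmb was above it in 7 of 8 mice. Gzma, granzyme A, was at 3.04 ± 0.936 FPKM (SD, n = 8), below Nkg7 and above the next gene in 8 of 8 mice. Prf1, perforin, at 1.74 ± 0.381 FPKM and Tbx21, which encodes T-bet, at 1.70 ± 0.312 FPKM (SD, n = 8 each) did not differ beyond their spread, since each was the higher in 4 of 8 mice. Klrk1, which encodes the activating receptor NKG2D of NK and CD8+ T cells, was at 1.23 ± 0.230 FPKM (SD, n = 8). It was lower than Tbx21 in 8 of 8 mice and higher than Eomes in 7 of 8. This order depends on the deposited gene length, 7183 bases for Klrk1 and 2488 bases for Tbx21. In CPM, Klrk1 was the higher, at 9.20 and 8.40 against 4.31 and 4.15 for Tbx21 (means under control and anti-BAFF Ab).

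The 4 lowest were Eomes and the receptors Ncr1, Klrb1c and Klre1. Eomes, a T-box factor of conventional NK cells and memory CD8+ T cells, was at 0.806 ± 0.110 FPKM (SD, n = 8). Ncr1, which encodes NKp46 and marks NK cells and ILC1, was at 0.690 ± 0.212 FPKM (SD, n = 8), and Klrb1c, which encodes NK1.1, was at 0.647 ± 0.215 FPKM (SD, n = 8). Neither Eomes and Ncr1 nor Ncr1 and Klrb1c had a settled order, the former being above the latter in 4 of 8 mice for each pair. Klre1, an NK receptor of the killer lectin-like family, was lowest at 0.442 ± 0.122 FPKM (SD, n = 8) and lay below Klrb1c in 6 of 8 mice.

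**Figure D1:**
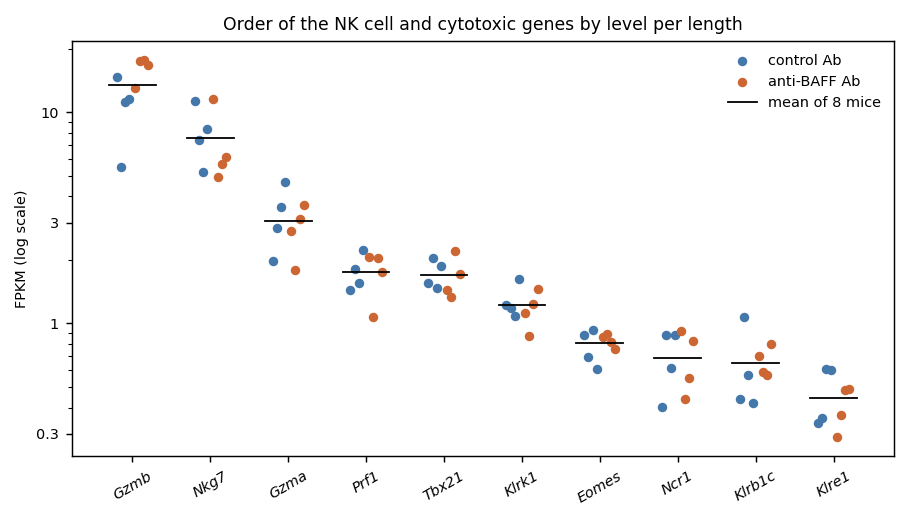
Level per gene length of the 10 NK cell and cytotoxic genes, in FPKM on a log axis, with 1 point per mouse (4 control Ab, 4 anti-BAFF Ab) and a line at the mean of the 8 mice. Gzmb and Nkg7 lie at 13.5 and 7.57 FPKM on average, whereas Eomes, Ncr1, Klrb1c and Klre1 lie below 1 FPKM on average.

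The defining NK markers were therefore present, at low counts. Ncr1 was covered by 10 to 23 counts per mouse, where counting error alone gives a coefficient of variation of about 25.4% in the control Ab-treated mice, and the observed one was 33.4%. Gzmb was covered by 134 to 444 counts, with a counting error of 6.73% against an observed variation of 35.7% in the same mice. Most of the spread of Gzmb thus lay between mice, whereas counting error made up a larger part of the spread of Ncr1. T cells were present too: 11 T cell markers summed to between 44.0 and 81.9 CPM, and Cd3e, a chain of the T cell receptor complex, lay between 2.26 and 5.83 CPM. Prf1, Gzma, Klrk1, Nkg7, Eomes and Tbx21 are shared by NK cells and T cells, and the table does not divide their counts between these cells. Klrb1c overlaps a second gene model on its own strand, Gm44511, over 8931 bases, and that model was listed at 0 counts in all 8 mice. The counting tool is not given, and reads that fit both models may have been left out. The level of Klrb1c is therefore uncertain. Eomes overlaps an antisense gene, Gm33460, by 574 bases, with 0 to 4 counts per mouse.

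The genes lie apart in the genome (mm10 per the labels, coordinates of the deposited table). The lectin-like receptors Klrb1c (chromosome 6, 128778485 to 128789215), Klre1 (chromosome 6, 129577905 to 129585827) and Klrk1 (chromosome 6, 129610323 to 129623864) share the NK receptor complex of chromosome 6. Ncr1 (4337724 to 4345164) and Nkg7 (43437073 to 43438249) are both on chromosome 7. Gzma is on chromosome 13 (113093825 to 113100981), Prf1 on chromosome 10 (61297833 to 61304680), Eomes on chromosome 9 (118478212 to 118486132) and Tbx21 on chromosome 11 (97098071 to 97115331). Gzmb (chromosome 14, 56258838 to 56262260) belongs to a cluster of granule proteases that also holds the mast cell chymases Mcpt4 and Cma1, whose genes start 199 kb and 317 kb away.

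Most of the genes, but not all, held a RUNX motif close to the start. RUNX factors, among them Runx3, are known regulators of NK and CD8+ T cells, and Runx3 was at 22.1 ± 2.22 and 23.02 ± 7.99 CPM under control and anti-BAFF Ab, respectively (SD, n = 4 each). RefSeq promoters (GRCm38.p6) were matched by symbol for all 10 genes, and the 250 bases before each start were searched on both strands for 4 motifs. TGTGGT, the RUNX motif, was found for 8 of the 10 genes, all but Eomes and Tbx21 (for Klre1 at 1 of its 2 starts). It is in 14% of all 32851 promoters, where each start of a gene counts as a promoter. AGGTGT, a T-box motif, was found in Gzma, Prf1 and Nkg7, against 11.8% of all promoters. The GATA motif AGATAA was found in 0 of the 10 (9.99% of all promoters). The AP-1 motif TGANTCA was found only in Gzmb (6.75% of all promoters). A match is a description of the letters and not a bound site. The windows of the 4 granule genes and of Cpa3, a mast cell gene that varied with Gzmb, are shown from 5′ to 3′ on the strand of the gene, with the RUNX motif or its reverse complement in capitals.
Gzmb (chr14:56262335-56262584, minus strand): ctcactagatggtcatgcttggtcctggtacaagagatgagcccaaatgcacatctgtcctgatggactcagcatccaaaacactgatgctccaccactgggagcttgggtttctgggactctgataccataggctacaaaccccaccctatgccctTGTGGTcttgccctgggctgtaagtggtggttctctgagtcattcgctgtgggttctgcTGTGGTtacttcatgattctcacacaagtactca
Gzma (chr13:113100982-113101231, minus strand): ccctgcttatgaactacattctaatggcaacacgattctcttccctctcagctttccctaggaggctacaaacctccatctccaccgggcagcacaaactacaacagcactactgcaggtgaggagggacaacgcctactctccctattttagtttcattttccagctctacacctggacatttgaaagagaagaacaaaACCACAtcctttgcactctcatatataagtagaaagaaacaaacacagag
Prf1 (chr10:61297586-61297835, plus strand): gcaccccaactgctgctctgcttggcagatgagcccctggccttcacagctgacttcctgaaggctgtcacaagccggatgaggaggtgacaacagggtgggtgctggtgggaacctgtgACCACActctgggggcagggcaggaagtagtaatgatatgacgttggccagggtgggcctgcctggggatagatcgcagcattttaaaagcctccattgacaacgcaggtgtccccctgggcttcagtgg
Nkg7 (chr7:43436888-43437137, plus strand): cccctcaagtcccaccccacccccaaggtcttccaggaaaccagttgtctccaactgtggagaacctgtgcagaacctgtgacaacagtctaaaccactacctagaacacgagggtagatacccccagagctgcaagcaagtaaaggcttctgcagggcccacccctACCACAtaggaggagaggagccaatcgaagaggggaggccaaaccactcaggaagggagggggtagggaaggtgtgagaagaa
Cpa3 (chr3:20242182-20242431, minus strand): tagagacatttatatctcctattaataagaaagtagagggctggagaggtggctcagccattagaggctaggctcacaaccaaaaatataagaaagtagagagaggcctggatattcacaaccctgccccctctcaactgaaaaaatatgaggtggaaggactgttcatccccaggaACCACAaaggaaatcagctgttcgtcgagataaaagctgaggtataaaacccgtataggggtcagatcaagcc

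In these windows Gzmb holds RUNX motifs that begin 93 and 34 bases before the start, and Gzma holds one at 50 bases, Prf1 at 130 bases and Nkg7 at 83 bases. Cpa3 holds the same motif at 73 bases and the GATA motif at 46 bases. The mast cell chymase Mcpt4 holds the RUNX motif at 69 bases and the T-box motif at 181 bases. The mast cell genes Kit (at both of its starts) and Cma1 were searched in the same way and hold 0 RUNX motifs.

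Treatment with anti-BAFF Ab left 9 of the 10 genes with differences smaller than the spread between mice, and Gzmb was the exception at an unadjusted p. In the quasi-likelihood test of edgeR, 0 of the 10 genes were under an adjusted p of 0.05 (adjusted p = 1.00 for each), against 0.0564% of the 15963 genes tested. With p unadjusted, 1 of the 10 fell under 0.05 (Gzmb, higher), against 1.9% of all genes tested and 0.664% in that direction. This unadjusted p did not hold in every setting, as given with the Gzmb values. DESeq2's Wald test called 0 of the 10 after adjustment, against 0.219% of 30626 genes, and 1 of the 10 (Gzmb) unadjusted, against 1.34%. Limma on log2(FPKM + 1) called 0 of the 10 and 9 of all genes. The 4 values per group overlapped for all 10 genes, whereas they did not overlap for 1.48% of the genes tested. The median log2 fold change, anti-BAFF Ab over control Ab, was -0.05 for the 10 genes and 0.0041 for all genes tested, and 7 of the 10 were below 0 against 48.5% of all genes.

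**Figure D2:**
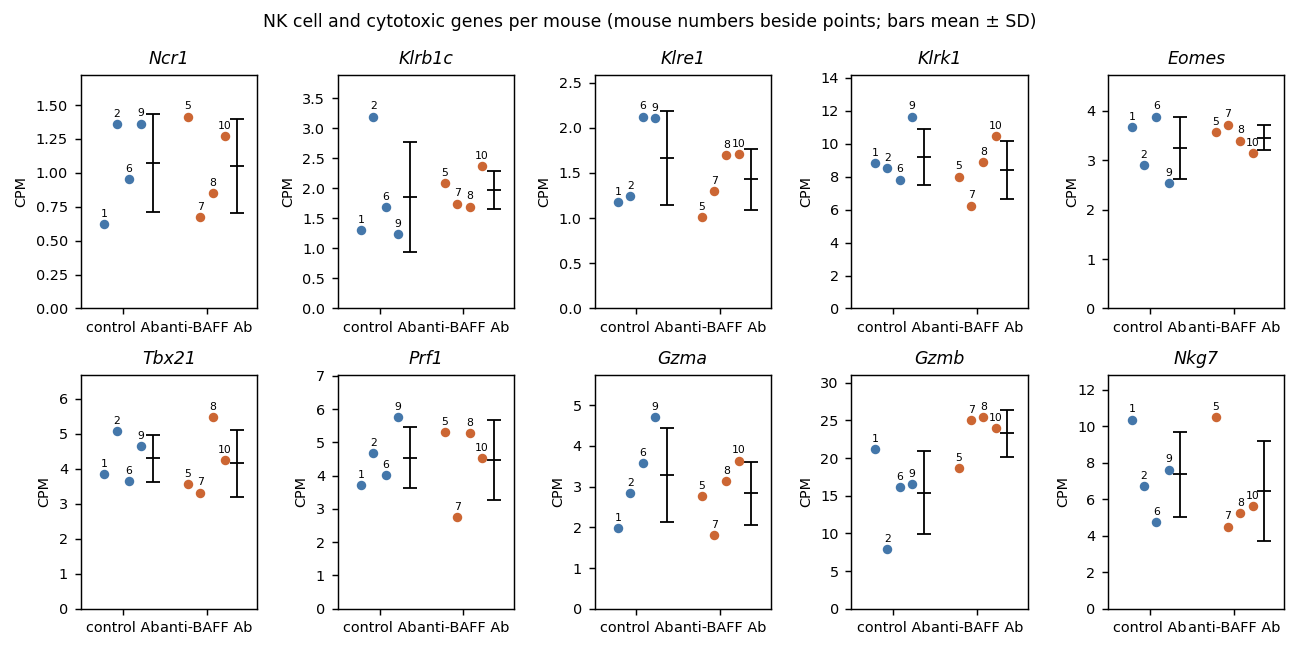
CPM of each of the 10 genes in each mouse, with the mouse number beside its point and bars for the mean ± SD of 4 mice. The groups overlap in every panel, and for Gzmb mice 7, 8 and 10 of the anti-BAFF Ab group lie above all control Ab-treated mice.

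Among the receptors, Ncr1 was at 0.620, 1.36, 0.951 and 1.36 CPM in control Ab-treated mice 1, 2, 6 and 9, and at 1.41, 0.676, 0.848 and 1.27 CPM in anti-BAFF Ab-treated mice 5, 7, 8 and 10. High and low mice occurred in both groups, and the log2 fold change was -0.04 (standard error 0.35). Klrb1c was at 1.30, 3.19, 1.68 and 1.24 CPM with control Ab and at 2.09, 1.75, 1.70 and 2.37 CPM with anti-BAFF Ab, in the same order of mice. Only control Ab-treated mouse 2 was above 3 CPM, and the anti-BAFF Ab-treated mice lay within the control range (log2 fold change 0.09, standard error 0.33). Without mouse 2 the log2 fold change of Klrb1c was 0.49 (edgeR's quasi-likelihood test, unadjusted p = 0.0924). Klrk1 was at 9.20 ± 1.68 and 8.40 ± 1.76 CPM under control and anti-BAFF Ab, respectively (SD, n = 4 each). Klre1 ranged from 1.18 to 2.12 CPM with control Ab and from 1.01 to 1.71 CPM with anti-BAFF Ab. The log2 fold changes were -0.13 (standard error 0.19) for Klrk1 and -0.21 (standard error 0.30) for Klre1. Anti-BAFF Ab-treated mouse 7 had the lowest Klrk1 and mouse 5 the lowest Klre1.

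The transcription factors did not differ between the groups beyond their spread. Eomes was at 3.24 ± 0.630 and 3.46 ± 0.246 CPM under control and anti-BAFF Ab, respectively (SD, n = 4 each), a log2 fold change of 0.09 (standard error 0.19). Tbx21 was at 4.31 ± 0.671 and 4.15 ± 0.967 CPM (SD, n = 4 each), a log2 fold change of -0.05 (standard error 0.21). These were, with Klrk1, the genes with the narrowest intervals: the 95% interval ran from -0.34 to 0.53 for Eomes and from -0.53 to 0.42 for Tbx21.

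Of the granule genes, Prf1 was at 3.72, 4.67, 4.02 and 5.76 CPM in control Ab-treated mice 1, 2, 6 and 9 and at 5.32, 2.76, 5.29 and 4.52 CPM in anti-BAFF Ab-treated mice 5, 7, 8 and 10. Its lowest value, in mouse 7, stood beside 2 of the higher values of the same group, and the log2 fold change was -0.03 (standard error 0.25). Gzma was at 1.98, 2.84, 3.58 and 4.71 CPM with control Ab and at 2.76, 1.80, 3.13 and 3.64 CPM with anti-BAFF Ab. The anti-BAFF Ab-treated mice lay within or below the control range, and the log2 fold change was -0.21 (standard error 0.31). Nkg7 was at 10.4, 6.74, 4.75 and 7.62 CPM with control Ab and at 10.5, 4.50, 5.22 and 5.63 CPM with anti-BAFF Ab. Mouse 1 of the control group and mouse 5 of the anti-BAFF Ab group were thus the highest for Nkg7, with the other 6 mice below 8 CPM. The same 2 mice were highest for Cd8a, a CD8+ T cell marker, at 9.24 and 7.27 CPM, with the other 6 mice between 1.61 and 4.62 CPM. Cd8a was chosen from the 11 T cell markers after its values were seen, and the others did not all follow it: Cd5 was at its lowest in mouse 5 (2.76 CPM), and Cd8b1 was at 4.53 CPM in mouse 1 but at 2.56 CPM in mouse 5 and 2.70 CPM in mouse 7. The part of T cells in the Nkg7 values was not tested. The log2 fold change of Nkg7 was -0.19 (standard error 0.31), and it was -0.54 without mouse 5 (edgeR's quasi-likelihood test, unadjusted p = 0.0724) and -0.0028 without mouse 1.

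Apart from Gzmb, the log2 fold changes of the 9 genes lay between -0.21 and 0.09 (edgeR's quasi-likelihood test, unadjusted p from 0.497 to 0.920). Their 95% intervals together ran from -0.91 to 0.83 on the log2 scale. The lowest limit was that of Gzma, a fold change of 0.532, and the highest was that of Klrb1c, a fold change of 1.78. Ncr1 had the largest standard error (0.35), with an interval from -0.83 to 0.75.

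Gzmb was at 21.2, 7.92, 16.1 and 16.5 CPM in control Ab-treated mice 1, 2, 6 and 9, and at 18.7, 25, 25.4 and 23.9 CPM in anti-BAFF Ab-treated mice 5, 7, 8 and 10. Of the anti-BAFF Ab-treated mice, 3 lay above every control Ab-treated mouse, and only mouse 5 lay below control Ab-treated mouse 1. The means were 15.4 ± 5.50 CPM (SD, n = 4) and 23.3 ± 3.11 CPM (SD, n = 4). The log2 fold change was 0.59 (standard error 0.26, 95% interval 0.014 to 1.17; edgeR's quasi-likelihood test, unadjusted p = 0.0457, adjusted p = 1.00). The lowest value came from control Ab-treated mouse 2, which also had high epididymis genes, and leaving it out lowered the log2 fold change to 0.38. In edgeR's quasi-likelihood test the unadjusted p was then 0.0369. It was 0.0151 without control Ab-treated mouse 1 and 0.0440 without anti-BAFF Ab-treated mouse 5. Without mouse 2 and mouse 7 together it was 0.32 (edgeR's quasi-likelihood test, unadjusted p = 0.0881). The unadjusted p of edgeR's quasi-likelihood test was also above 0.05 with upper quartile normalization (0.0529) and without control Ab-treated mouse 6 (0.0722) or mouse 9 (0.0647) or anti-BAFF Ab-treated mouse 7 (0.0978), mouse 8 (0.104) or mouse 10 (0.082).

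**Figure D3:**
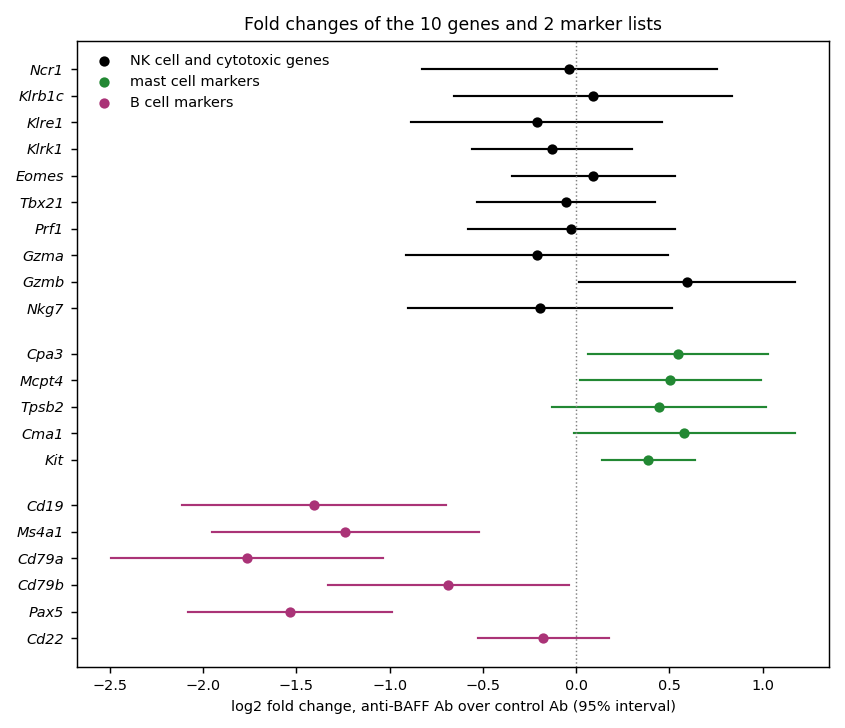
Log2 fold change, anti-BAFF Ab over control Ab, with its 95% interval from edgeR's quasi-likelihood test, for the 10 genes (black), 5 mast cell markers (green) and 6 B cell markers (purple). Gzmb, at 0.59, lies with the mast cell markers at 0.39 to 0.58, while the other 9 genes lie between -0.21 and 0.09 and the B cell markers between -1.77 and -0.18.

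The mast cell markers moved with Gzmb. This list holds Cpa3, a carboxypeptidase of mast cell granules, the chymases Mcpt4 and Cma1, the tryptase Tpsb2, and Kit, the receptor for stem cell factor. Its 5 genes summed to 1014, 487, 797 and 746 CPM in control Ab-treated mice 1, 2, 6 and 9 and to 858, 1388, 1148 and 915 CPM in anti-BAFF Ab-treated mice 5, 7, 8 and 10. Mouse 2 was lowest for both the mast cell sum and Gzmb, and mice 7 and 8 were the highest for both. All 5 markers had a log2 fold change above 0 (0.39 to 0.58), whereas 48.5% of all genes tested were below 0. Before adjustment, p was under 0.05 for 3 of them (Kit, Cpa3 and Mcpt4; edgeR), against 0.664% of all genes tested in that direction. After adjustment it was under 0.05 for 0 of them, against 0.0564% of all genes tested. No defining marker of the list was near 0: the lowest, Kit, was at 47.2 CPM or more in every mouse.

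Gzmb was also expressed relative to this sum, a measure chosen after its values were seen. It was 2.09%, 1.63%, 2.02% and 2.22% of the mast cell sum in control Ab-treated mice 1, 2, 6 and 9 and 2.18%, 1.80%, 2.22% and 2.62% in anti-BAFF Ab-treated mice 5, 7, 8 and 10. The groups overlapped, with means of 1.99% ± 0.254 (SD, n = 4) and 2.20% ± 0.333 (SD, n = 4), a difference of 0.217 percentage points (exact permutation test, two-sided, p = 0.371; the smallest p that 4 mice against 4 allow is 0.0286). The same exact permutation test gave p = 0.0571 for Gzmb in CPM and p = 0.114 for the mast cell sum in CPM. Relative to Ptprc instead, Gzmb ran from 2.83% to 5.29% with control Ab and from 5.35% to 7.52% with anti-BAFF Ab. The groups did not overlap in this ratio, but only by a narrow margin (5.29% against 5.35%), and in CPM Gzmb did overlap. No test was run on the ratio. How many of all genes separate the groups relative to Ptprc was not computed, whereas in CPM 1.48% of the genes tested did not overlap. The mast cell sum relative to Ptprc ran from 174% to 262% and from 245% to 417%. Gzmb over Gzma, as a ratio of CPM, ranged from 2.79 in mouse 2 to 13.9 in mouse 7. The share of Gzmb RNA that mast cells contributed was not tested.

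**Figure D4:**
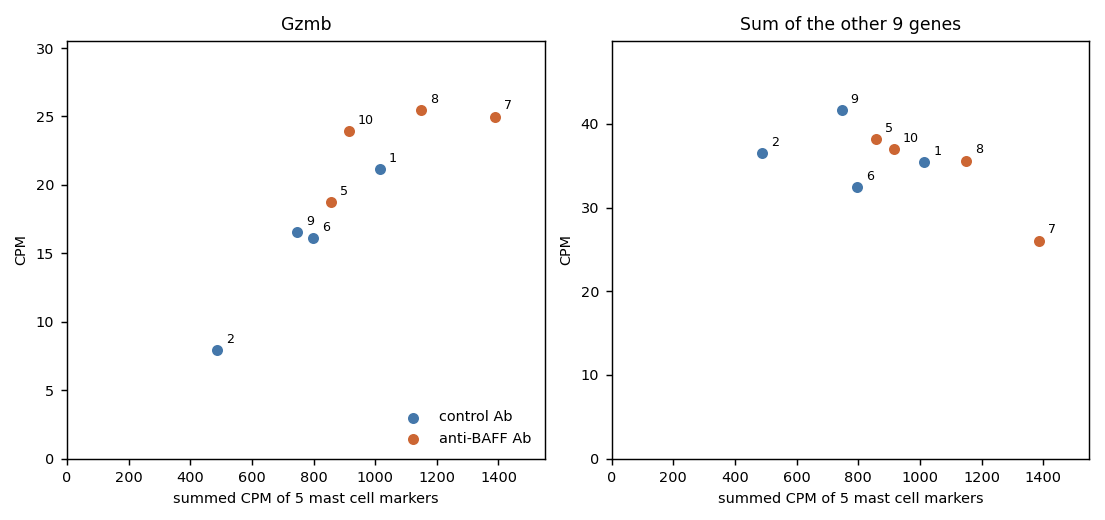
Gzmb (left) and the sum of the other 9 genes (right), in CPM, against the summed CPM of 5 mast cell markers, with 1 point per mouse and its number beside it. Gzmb runs from 7.92 CPM at a mast cell sum of 487 CPM (mouse 2) to 25 CPM at 1388 CPM (mouse 7), whereas the other 9 genes sum to 36.5 CPM in mouse 2 and 26.1 CPM in mouse 7.

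The genes did not vary as a block across the 8 mice. As a description, Pearson's r of log2 CPM was above 0 for 21 of the 36 pairs without Gzmb (median 0.21) and for 2 of the 9 pairs with Gzmb (median -0.21). The pairs share libraries and library sizes, so no p is given. Klrk1, Gzma and Prf1 varied most alike, with r of 0.76 for Klrk1 and Gzma and for Gzma and Prf1 and 0.74 for Klrk1 and Prf1. Eomes ran the other way. Its r was -0.76 with Klrk1, -0.64 with Ncr1 and with Tbx21, -0.62 with Gzma and -0.61 with Prf1, and its highest was 0.43, with Gzmb. Anti-BAFF Ab-treated mouse 7 had the lowest value of 5 genes (Klrk1, Tbx21, Prf1, Gzma and Nkg7). Summed over the 9 genes other than Gzmb, the level was 26.1 CPM in mouse 7 and between 32.5 and 41.6 CPM in the other 7 mice. The group means were 36.5 ± 3.81 and 34.2 ± 5.55 CPM under control and anti-BAFF Ab, respectively (SD, n = 4 each). Relative to Ptprc these 9 genes were at 11.3% ± 2.12 (SD, n = 4) and 10.1% ± 1.56 (SD, n = 4).

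The genes nearest to each pattern differed between the members. Among 14865 genes with a mean of at least 1 CPM, the 5 outside the lists used here that varied most like the mean of the 10 genes over the 8 mice were Fndc3b (r = 0.99), Rps3a2 (0.96), Chd7 (0.96), Kctd12 (0.96) and Oxsr1 (0.95). For Gzmb alone, a look added after its values were seen, Kif5b, a kinesin, ranked 1 (r = 0.97), Tnip3 ranked 3 (0.96) and Cops2 ranked 4 (0.96), none of them in the mast cell list. Of that list, Cpa3 ranked 2 (0.97), Mcpt4 ranked 5 (0.96), Kit ranked 11 (0.94), Cma1 ranked 22 (0.92) and Tpsb2 ranked 68 (0.88). Il1rl1, a gene of the ILC2 marker list, ranked 7 (0.95). For Klrk1 the first gene was Cd226, another activating receptor of NK and T cells (r = 0.94), and Il2rb, a chain of the IL-2 and IL-15 receptors, ranked 8 (0.90). For Nkg7 the second was Tigit, an inhibitory receptor of T and NK cells (r = 0.97). With 8 mice and so many genes, values of this size arise for many genes, so the ranks only describe these libraries.

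The wider NK pathway held no gene past the adjusted threshold either. A list of 103 further genes in 7 groups was read from the fit over all genes, and 89 of them had enough counts to be tested. After adjustment, 0 of the 89 were called by edgeR's quasi-likelihood test and 0 by DESeq2, and before it edgeR gave p under 0.05 to 1 of them, against 1.9% of all genes tested. This unadjusted count rose to 13 without control Ab-treated mouse 1, where it rose from 304 to 1708 over all genes, to 7 without anti-BAFF Ab-treated mouse 5 (420 over all genes), and to 3 without anti-BAFF Ab-treated mouse 10. It was 2 without control Ab-treated mouse 6 or anti-BAFF Ab-treated mouse 7. The median log2 fold change was 0.0049, against 0.0041 for all genes tested, and the range was -0.93 to 0.72. The gene with the unadjusted p under 0.05 was Klra3, an NK receptor of the Ly49 family, at 2.11, 1.00, 1.68 and 1.24 CPM in control Ab-treated mice 1, 2, 6 and 9 and at 3.16, 2.20, 2.54 and 2.04 CPM in anti-BAFF Ab-treated mice 5, 7, 8 and 10. The groups overlapped only between control Ab-treated mouse 1 and anti-BAFF Ab-treated mouse 10. Its log2 fold change was 0.72 with a standard error of 0.28. In edgeR's quasi-likelihood test its unadjusted p was 0.0303 and its adjusted p was 1.00. Reads of the closely related Ly49 genes may have been divided among them, so this value is uncertain.

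**Figure D5:**
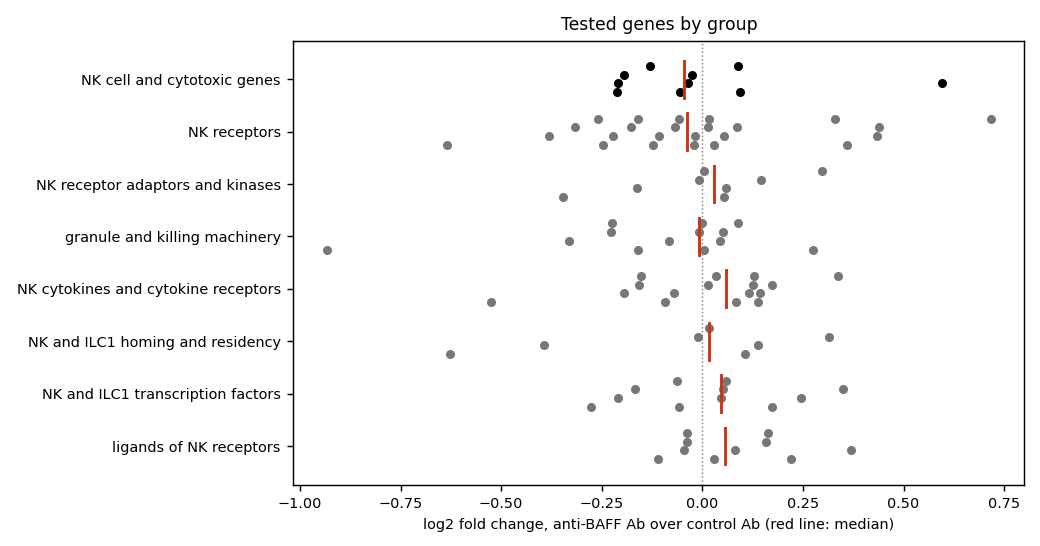
Log2 fold change, anti-BAFF Ab over control Ab, of the tested genes among the 10 NK cell and cytotoxic genes (top, black) and in 7 groups of NK pathway genes (grey), with a red line at each median. The medians lie between -0.05 and 0.06, and the points reach from -0.93 (Gzmk) to 0.72 (Klra3).

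By role, the 24 tested NK receptors had a median log2 fold change of -0.04, and their most abundant genes were Fcgr3, an Fc receptor, at 262 ± 61.2 and 250 ± 10.1 CPM (SD, n = 4 each) and Slamf7, an activating receptor, at 109 ± 17.1 and 107 ± 7.96 CPM (SD, n = 4 each). Macrophages also express these 2 genes, and 5 macrophage markers summed to between 6751 and 11404 CPM. The abundant genes named for each group are levels of the whole SVF, and their counts cannot be divided between NK cells and other cells. The 8 adaptors and kinases had a median of 0.03, and Tyrobp, the adaptor DAP12, was at 295 ± 91.7 and 296 ± 13.61 CPM (SD, n = 4 each). Syk, a kinase downstream of such adaptors, was at 371 ± 78.2 and 386 ± 8.46 CPM (SD, n = 4 each). The 13 genes of the granule and killing machinery had a median of -0.0095. Lamp1, a lysosome and granule membrane protein, was at 1213 ± 169 and 1258 ± 55.3 CPM (SD, n = 4 each), and Ctsc, the protease that activates granzymes, was at 326 ± 50.3 and 326 ± 66.0 CPM (SD, n = 4 each).

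The 16 cytokines and cytokine receptors had a median of 0.06. Il2rb was at 45.1 ± 3.80 and 43.0 ± 4.36 CPM (SD, n = 4 each), and Ccl3, a chemokine made by NK cells and macrophages, at 46.5 ± 10.5 and 58.7 ± 7.34 CPM (SD, n = 4 each; unadjusted p = 0.0688 from edgeR's quasi-likelihood test). Ifng, which encodes interferon gamma, was covered by only 1 to 13 counts per mouse and was not tested. The 7 homing and residency genes had a median of 0.02, with Il7r, the IL-7 receptor of ILCs and T cells, at 90.4 ± 7.70 and 99.4 ± 13.3 CPM (SD, n = 4 each). Cd200r1, an ILC1 and myeloid receptor, was at 45.6 ± 18.3 and 49.0 ± 4.67 CPM (SD, n = 4 each).

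The 11 transcription factors had a median of 0.05. Zeb2, a factor of mature NK cells, was at 313 ± 25.6 and 353 ± 15.3 CPM (SD, n = 4 each; unadjusted p = 0.0718 from edgeR's quasi-likelihood test), and Klf2, a factor of lymphocyte trafficking that endothelium also expresses, at 298 ± 63.4 and 246 ± 85.3 CPM (SD, n = 4 each). The 10 ligands of NK receptors had a median of 0.06, with H2-T23, which encodes Qa-1, at 212 ± 1.76 and 207 ± 8.01 CPM (SD, n = 4 each). Cfp, properdin, was at 244 ± 47.1 and 249.2 ± 53.4 CPM (SD, n = 4 each).

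The lymphocyte markers of the same libraries set these values in context. The 6 B cell markers were all lower on average with anti-BAFF Ab, with a median log2 fold change of -1.32, and their sum ran from 49.6 to 59.2 CPM with control Ab and from 23 to 42.9 CPM with anti-BAFF Ab. Before adjustment edgeR gave p under 0.05 to 5 of the 6, against 1.24% of all genes tested in that direction. After adjustment edgeR called 0 (0.0564% of all genes tested) and DESeq2 called 3 (0.219% of its genes). The T cell sum ran from 48.7 to 81.9 CPM with control Ab and from 44.0 to 64.9 CPM with anti-BAFF Ab. Of the 11 T cell markers, 10 had a log2 fold change below 0, against 48.5% of all genes tested. Their median was -0.24, and edgeR's unadjusted p was under 0.05 for 0 of the 11, against 1.9% of all genes tested. Of the other lists, 6 ILC2 markers summed to between 85.4 and 150.2 CPM, 4 gamma delta T cell genes to between 2.42 and 5.20 CPM and 3 plasmacytoid dendritic cell genes to between 56.2 and 71.7 CPM. The ILC2 sum rested largely on Il1rl1, at 67.2 ± 14.2 and 84.2 ± 7.40 CPM under control and anti-BAFF Ab (SD, n = 4 each). The plasmacytoid sum rested largely on Bst2, at 60.0 ± 5.72 and 56.4 ± 5.03 CPM (SD, n = 4 each). Siglech was at 4.72 ± 1.94 and 3.33 ± 0.232 CPM (SD, n = 4 each). These 2 sums do not measure how many such cells were present.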

How the data were processed

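RNA of the gonadal WAT SVF was analysed for 4 control Ab-treated and 4 anti-BAFF Ab-treated mice, whose groups and numbers come from the sample titles. The authors deposited 1 raw count per gene and mouse from paired-end NovaSeq reads, together with gene coordinates and lengths. The build is mm10 per the labels; the aligner, counting tool and strand setting are not given in the sources used here. FPKM was computed here from the deposited counts and the deposited gene length, an other value in bases.

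Genes kept by filterByExpr (minimum count 10; 15963 genes) were compared in edgeR 4.0.16 (R 4.3.3; TMM, quasi-likelihood test, treatment as the sole term), with Benjamini-Hochberg adjustment over all of them. The standard error of a fold change was taken from its F value. As alternatives, DESeq2 1.42.0 and limma 3.58.1 were run. The 3 methods were tested on simulated data with planted changes larger than any reported for the 10 genes. How well changes of their size are found was not simulated. Permutation tests were exact and two-sided (scipy 1.17.1). Replicates were distinct libraries (chi-square per degree of freedom at least 7.91), and p-values measure the spread between mice. No batch is labelled.

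The 10 genes and all lists were chosen with earlier results of these data known. Pathway genes were named if their unadjusted p was under 0.05 or if they were among the 2 most abundant of their group, and genes alike in pattern were the 5 with the highest r.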

Additional observations from a re-analysis of the deposited data

Results flagged for a closer look

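Dixon's 95% limit was applied to 54 sets of 4 values, each a reported gene or ratio in 1 treatment group. A single mouse stood outside the limit in 6 sets, and chance alone gives about 2.7 (1 in 20). None of the 10 NK cell and cytotoxic genes was among them; all 6 were genes of the wider pathway list. Tyrobp reached 431 CPM in mouse 1 (control Ab), with the other 3 control mice between 236 and 269 CPM, and only 275 CPM in mouse 10 (anti-BAFF Ab), with the other 3 between 301 and 304 CPM. Cd200r1 reached 72.8 CPM in mouse 1 (control Ab). This mouse, also the outlying control for Tyrobp, had the highest macrophage sum (11404 CPM) of the 8 mice. The part of macrophages in the Tyrobp and Cd200r1 values was not tested. Klf2 reached 372 CPM (192.8 to 223 CPM in the other 3) and Cfp 329 CPM (214 to 229 CPM) in mouse 5 (anti-BAFF Ab), whose neutrophil sum was the highest; the part of neutrophils was not tested. H2-T23 reached 219 CPM in mouse 8 (anti-BAFF Ab), with the other 3 between 201 and 204 CPM.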

How the results depend on the processing

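No paired analysis was possible because the mouse numbers differ between the groups. The 10 genes stayed at 0 calls at an adjusted p of 0.05 under all alternatives run, and so did the pathway list, while the number called over all genes was 67 with DESeq2, 19 without a filter on low counts, 2 with the robust option, 3 without mice 2 and 7 together and 2 to 9 with 1 mouse left out, against 9; the cause was not tested. The log2 fold change of Gzmb stayed above 0 throughout, from 0.32 to 0.66 under alternatives other than leaving out 1 mouse and from 0.38 to 0.77 with 1 mouse left out, and its lowest adjusted p was 0.389, without control Ab-treated mouse 1. Of the fold changes of the 10 genes, 4 of 100 changed sign under alternatives other than leaving out 1 mouse and 14 of 80 with 1 mouse left out. Without mice 2 and 7 together, the log2 fold change was 0.25 for Ncr1, 0.14 for Prf1, 0.11 for Tbx21 and -0.012 for Eomes, and Klrb1c moved from 0.09 to 0.53. With 1 mouse left out it ranged from -0.24 to 0.11 for Ncr1, from -0.064 to 0.49 for Klrb1c, from -0.14 to 0.13 for Prf1, from -0.23 to 0.036 for Tbx21, from -0.0069 to 0.19 for Eomes, from -0.41 to 0.020 for Gzma, from -0.25 to 0.0045 for Klrk1, from -0.54 to -0.0028 for Nkg7 and from -0.36 to -0.07 for Klre1. The median over the 10 genes ranged from -0.13 to 0.03 with 1 mouse left out. The summed level of the 10 genes relative to Ptprc had a log2 ratio of 0.11, which became -0.15 without Gzmb and ranged from 0.04 to 0.17 with 1 mouse left out. Gzmb relative to the mast cell sum differed by 0.0797 to 0.351 percentage points with 1 mouse left out, where the smallest p is 0.0571. The low counts of Ncr1, Klrb1c and Klre1 (10 to 54 per mouse) limit what can be seen for these genes.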
